A study of Caenorhabditis elegans with 2 samples.

Results

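The regions described here are 713 places in 3′ untranslated regions (3′ UTRs) where chromatin immunoprecipitation of tagged JUN-1 gave a listed but lower-ranked signal. They were taken from the authors' pooled list, named as holding both peaks and background, so a listed region can be background. This list has 20820 regions on build ce11 of the Caenorhabditis elegans genome. Of these, 17626 overlapped none of the 2738 IDR peaks, the regions that the authors kept by the irreproducible discovery rate, which measures how alike replicates rank regions. A lower-ranked region was counted here when its summit lay in an annotated 3′ UTR, in no coding exon, and outside every promoter window, which runs from 1000 bp before to 500 bp after the start of any protein-coding transcript. The 713 regions make up 4.05% of the lower-ranked regions. No signal value entered the rule directly, but the exclusion of IDR peaks capped the values. The highest region inside the set had a pooled signal value of 31.3, at suro-1, and the lowest IDR peaks in 3′ UTRs had 31.5, at bed-2, and 31.7, at ZK822.1.

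The material was whole L3 larvae of mixed sex from strain OP234, whose genotype is unc-119(ed3) III with the transgene wgIs234, which tags jun-1 with eGFP. The labels name 1 group with 2 biological replicates and no second condition, so every value below is a description without a test. They do not say which sequence drives the fusion, and the control libraries they name were not analysed here. A whole larva mixes all tissues, so a weak region in every cell and a strong region in a few cells cannot be told apart. The read depth behind the regions is unknown, as no source used here gives it.

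JUN-1 is a transcription factor of the bZIP family, the worm relative of mammalian Jun. Jun proteins pair with Fos proteins, such as worm FOS-1, to form AP-1, which binds a short palindrome-like site in DNA and acts downstream of stress and growth kinases. The 3′ UTR is the part of the messenger RNA after the stop codon, where microRNAs and RNA-binding proteins act, and its end is set by cleavage and polyadenylation. In the compact worm genome the 3′ UTR is also DNA that lies close to the next gene, so a chromatin signal there says nothing by itself about the RNA.

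An AP-1 site, TGACTCA or TGAGTCA on either strand, was found within 50 bp of the summit in 3 of the 713 regions. They are shown because AP-1 is the element that Jun and Fos proteins are known to bind. Each is read from the RefSeq sequence of the WBcel235 assembly (the same sequence as ce11) on the strand of the host gene, 5′ to 3′, with the site in capitals.
dhs-28, chrX:6820013-6820039: taaattatatTGAGTCAgaatgattaa
hbl-1, chrX:5827488-5827514: tgtacctcatTGACTCAttttgccatc
din-1, chrII:11615068-11615094: tttacccgatTGACTCAgacttgtgtt
The dhs-28 site lay 30 bp from its summit, the hbl-1 site 30 bp and the din-1 site 44 bp. The second set of sequences, chosen after their values were seen, shows GA repeats, which were more frequent in these regions than in 3′ UTR sequence at large. These are 6 of the regions of highest pooled signal with GAGAGAGA on either strand, again with the repeat in capitals.
sid-5, chrX:6905797-6905824: acccgtttttTCTCTCTCctgtcaataa
daf-2, chrIII:2994916-2994943: attccccctcTCTCTCTCcttatacata
tax-6, chrIV:10492994-10493021: tttttctcctTCTCTCTCcctctctgtc
Y51A2D.13, chrV:18573039-18573066: tggaatttttGAGAGAGAtttttttttt
sup-26, chrIII:4276845-4276872: cgtctctctcTCTCTCTCcctctctatc
egl-4, chrIV:1880498-1880525: ttttctttgcTCTCTCTCttatgtctcg
Of these 6, only the Y51A2D.13 repeat reads as GA on the strand of its gene, and the others read as TC.

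Every region was 390 bp wide, which is longer than many worm 3′ UTRs. The median region had 77.2% of its bases in annotated 3′ UTR, and 608 regions (85.3%) had at least as many of them inside as outside. A region reached into a coding exon in 385 cases (53.997%) and into a promoter window in 58 (8.13%). The name of the set therefore holds for the summits, and for most of the covered bases. The regions are not fully separate observations, since 104 overlapped another region of the set.

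Lower-ranked regions were denser in 3′ UTRs than in any other class of sequence. Over the 2.27 Mb that met the positional rule, called qualifying sequence below, there were 314 regions per Mb. Promoter windows held 228 per Mb, intergenic sequence 168, introns 162 and coding exons 89.2. The same order at the top was seen in the separate lists of the replicates, with 382 per Mb in 3′ UTRs for replicate 1 and 453 for replicate 2, against 290 and 303 per Mb in promoter windows. IDR peaks had another order. They lay at 49.6 per Mb in promoter windows, 28.1 in intergenic sequence, 16.3 in 3′ UTRs and 15.4 in introns, and only 37 of them met the rule for 3′ UTRs. Of all IDR and lower-ranked regions in 3′ UTRs, 4.93% were IDR peaks, compared with 17.9% in promoter windows and 2.19% in coding exons.

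**Figure D1:**
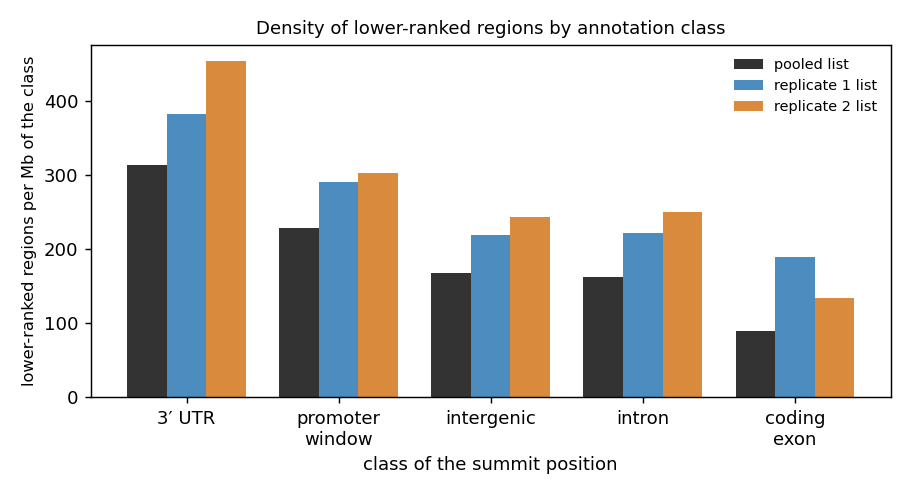
Bars give lower-ranked regions per megabase (Mb) of each class of sequence, in the pooled list and in the list of each replicate, by the class of the summit position. The 3′ UTR bars are the tallest in all 3 lists, at 314, 382 and 453 per Mb.

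The high density was part of a wider rise around the ends of genes. Outside promoter windows, lower-ranked summits lay at 99.6 to 119 per Mb between 1000 and 301 bp upstream of the nearest annotated 3′ end of a coding transcript. They reached 220 per Mb in the last 100 bp before the end and 303 per Mb in each of the first pair of 100-bp bins beyond it, and were back at 162 per Mb by 400 to 499 bp downstream. IDR peaks lay at 1.88 to 9.29 per Mb in the bins from 1000 to 101 bp upstream and at 42.1 per Mb at 100 to 199 bp downstream. From 200 to 999 bp downstream they ranged from 12.5 to 25.02 per Mb, with no steady fall. Within the 3′ UTRs themselves the regions did not crowd towards the end. Their median distance to the annotated end of their gene was 127 bp, against 118 bp for all qualifying bases, and 27.6% lay within 50 bp of it, against 26.8%.

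**Figure D2:**
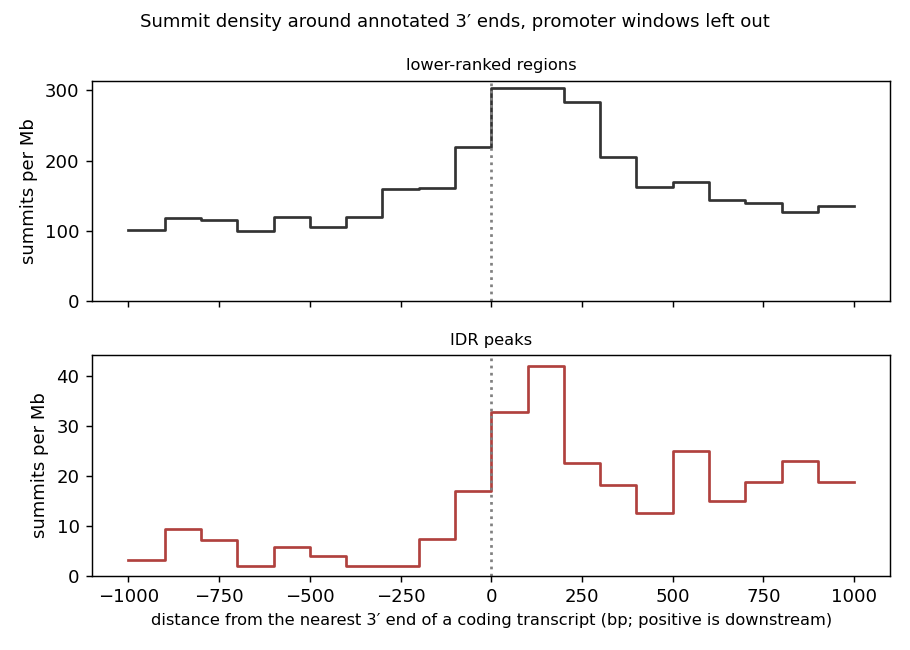
Lines give summits per Mb in 100-bp bins of distance from the nearest annotated 3′ end, with bases in promoter windows left out, for lower-ranked regions (top) and IDR peaks (bottom). Both are highest just beyond the end, at 303 and 42.1 per Mb.

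Signal values, a score that the authors give for each region and whose scale is not stated, were close to those of lower-ranked regions elsewhere. The pooled value had a median of 12.2, with quartiles of 10.2 and 16.1 and a range of 8.67 to 31.3. The median was 11.9 over the 16913 other lower-ranked regions, 12.8 in promoter windows and 10.98 in coding exons. IDR peaks in 3′ UTRs had a median of 37.9 and reached 183 at zig-13. The authors' −log10 q-value had a median of 0.201 in the 713 regions, with an upper quartile of 0.590 and a range of 0.0177 to 3.29. Most of the regions were thus not significant by this value at usual limits.

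Somewhat fewer regions were listed in both replicates than were not. A summit of each replicate lay within 200 bp for 325 regions, or 45.6% (exact 95% interval 41.9 to 49.3%). A further 231 (32.4%) were matched only in replicate 2, 135 (18.9%) only in replicate 1 and 22 (3.09%) in neither. Intervals here and below are Clopper-Pearson intervals, treat regions or genes as independent and cover counting error only. The share matched in both was 47.4% in promoter windows, 43.5% in intergenic sequence, 37.8% in introns and 32.8% in coding exons, and 33 of the 37 IDR peaks in 3′ UTRs were matched in both. The share rose with the pooled signal, which contains both replicates, from 14.5% in the lowest of 4 equal groups of the set to 83.1% in the highest, where 148 of 178 regions were matched. The replicates ranked the regions poorly among themselves. In the 325 regions, the values had a Pearson r of 0.253 on the log10 scale and a Spearman rank correlation of 0.263, over a range narrowed by the IDR exclusion. Replicate 2 had the higher value in 227 of them, with a median ratio of 1.32 between values that come from separately made lists.

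**Figure D3:**
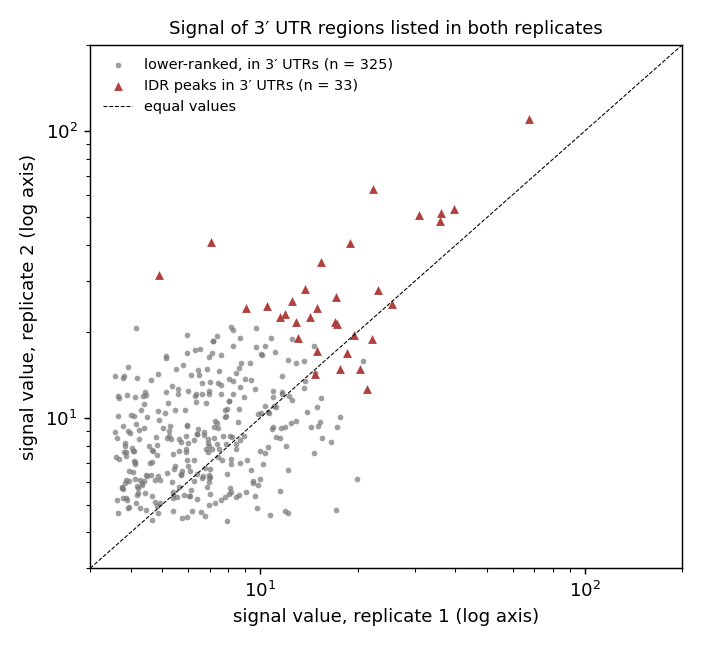
Each point is a 3′ UTR region with a summit within 200 bp in both replicates, placed by the signal value in replicate 1 and replicate 2 on log axes. The 325 lower-ranked regions form a broad cloud with little slope, and the 33 IDR peaks lie mostly above and to the right of it.

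The 20 regions of highest pooled signal fell in the 3′ UTRs of 19 genes. At suro-1, on chromosome I at 7872068 to 7872457, the pooled value was 31.3, with 20.7 in replicate 1 and 15.8 in replicate 2. At lit-1, the Nemo-like kinase of Wnt signalling that orients asymmetric divisions, it was 30.8, with 14.6 and 17.8. At hpd-1, which encodes the tyrosine-degrading enzyme 4-hydroxyphenylpyruvate dioxygenase, it was 30.6, with 11.7 and 14.0, and the summit lay 6 bp from the annotated end. These top regions were thus listed in both replicates at values well above the set's medians of 6.60 in replicate 1 and 8.43 in replicate 2.

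Not all of the strongest regions had support from both libraries. The gon-14 region, in a gene needed for gonad development, had 29.1 in the pooled list and 26.5 in replicate 2, the highest replicate 2 value of the set, with no summit within 200 bp in replicate 1. The strongest W06H8.6 region had 30.3 in the pooled list and 21.2 in replicate 1, with no match in replicate 2, while a second W06H8.6 region that overlaps it had 27.1, with 12.9 and 15.6. The other 18 of the 20 were matched in both.

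The other genes of this group have varied known roles. The lgg-2 region, in an Atg8-family autophagy gene, had 28.5 pooled, 10.4 in replicate 1 and 17.9 in replicate 2. The spk-1 region, in a kinase of SR splicing proteins, had 27.6, with 8.29 and 20.2. At sid-5, a gene of systemic RNA interference, it was 27.3, with 8.15 and 20.7. The plin-1 region, in the gene for the lipid droplet protein perilipin, had 26.1, with 15.3 and 9.66, and the gpdh-2 region, in a glycerol-3-phosphate dehydrogenase gene, 26.1, with 16.6 and 8.24. The replicates thus differed in which of these regions they placed higher. The rest of the 20 were in F18G5.6, Y75B8A.6, Y72A10A.1, col-103 (a cuticle collagen), F25B5.3, lgc-58 (a ligand-gated ion channel), smut-1, algn-12 (an enzyme of N-glycan assembly) and nck-1 (an adaptor of the SH2 and SH3 type), with pooled values of 26.4 to 30.5.

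In all, 697 protein-coding genes had a region in their 3′ UTR, which is 6.07% of the 11483 genes with qualifying sequence. A single region was found in 646 of them and 2 regions in 47. The most were in mbk-2, a DYRK-type kinase of the oocyte-to-embryo transition, with 4 regions of pooled value 23.9, 11.03, 10.9 and 9.94. Only the strongest of these was matched in both replicates, at 5.12 and 16.2. W06H8.6, F58D5.5 and ncl-1, a growth regulator that limits nucleolar size, had 3 each, and lit-1 was among those with 2. Some of these neighbouring regions overlap and take their value from one region of a replicate, as at ncl-1, where replicate 1 gave 12.2 to both of the regions at 24.7 and 8.90. The 3′ UTRs of W06H8.6 and ncl-1 also held an IDR peak, at pooled values of 32.7 and 39.6.

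Long 3′ UTRs had more regions, also per base. Length here and below counts qualifying bases only, and leaves out 3′ UTR bases in coding exons or promoter windows. Genes with a region had a median of 373 qualifying bases, against 127 over all genes with such sequence. The share of genes with a region rose from 1.45% for 1 to 100 qualifying bases to 18.1% for 401 to 800 and 39.9% above 800. Per megabase, the same classes went from 250 regions to 361 and 432, so the density rose along with the length.

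Genes with a 3′ UTR region more often had an IDR peak in their own promoter. There were 161 such genes of 697, or 23.1% (20.02 to 26.4%), against 10.1% (1155 genes) of all genes with qualifying sequence. Since promoter peaks were also more common at genes with long 3′ UTRs, the share of each length class was applied to the 697 genes, which gives 14.9%. Within each of the 5 length classes, genes with a region had the higher share, from 19.4% against 6.94% in the shortest class to 33.3% against 23.6% in the longest. Without the regions within 2000 bp of an IDR summit, a setting added after seeing the data, the share was 19.1% of 617 genes. Neither the share over all genes nor that given by length was recomputed with this setting, so the 19.1% has no matching reference. A lower-ranked region in the promoter was present at 55.8% of the 697 genes and 35.4% of all, with 43.4% given by length. The median distance from a region to the nearest IDR summit was 8028 bp, against 12561 bp for qualifying bases.

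**Figure D4:**
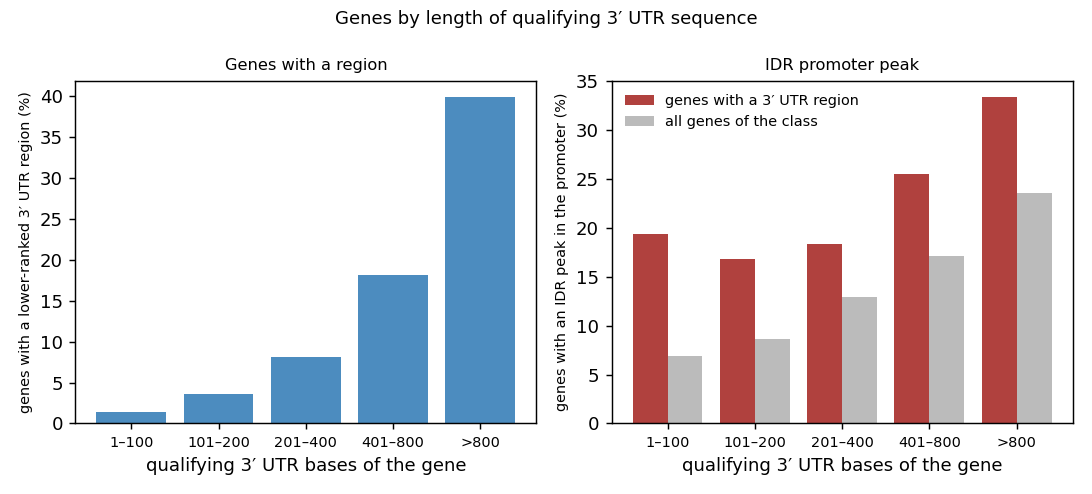
Genes are grouped by their number of qualifying 3′ UTR bases. Left bars give the percent of genes with a lower-ranked 3′ UTR region, which rises from 1.45 to 39.9%, and right bars the percent with an IDR peak in the promoter, higher for genes with a region than for all genes in each class.

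Facing gene ends carried more regions than other 3′ UTRs on the autosomes. The next gene beyond the 3′ end lay on the opposite strand, in a tail-to-tail or convergent arrangement, for 472 regions, or 66.2% (62.6 to 69.7%), compared with 58.5% of qualifying bases. On the autosomes the share was 70.4% (66.5 to 74.2%) against 60.9% of bases, or 370 regions per Mb in convergent and 242 in other 3′ UTRs. On the X chromosome it was 74 of 148 regions (41.7 to 58.3%) against 50.3% of bases, and the densities were 291 and 295 per Mb. With promoter windows of 500 or 2000 bp upstream, the share changed to 58.7% or 75.2%, but so did that of the bases, to 50.7% and 67.9%. In 64 pairs of convergent neighbours both genes counted as having a region. In 40 of these pairs a single region lay in the 3′ UTRs of both genes, and in 24 each gene had a separate one.

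One of these pairs is fos-1, the gene for the Fos-type partner of JUN-1, and rpt-2, a subunit of the proteasome cap. The rpt-2 region, at 6015908 to 6016297 on chromosome V, had 25.8 in the pooled list, 5.95 in replicate 1 and 19.5 in replicate 2. The fos-1 region, at 6015611 to 6016000, overlaps it and had 15.1 in the pooled list and 14.8 in replicate 2, with no summit within 200 bp in replicate 1. Replicate 2 thus had a summit for both regions and replicate 1 for one of them. Both genes also had an IDR peak in the promoter window. The 3′ UTR of jun-1 itself has 0 qualifying bases, so no region could be counted there.

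AP-1 sites were no more frequent in these regions than in 3′ UTR sequence as a whole. The share was 0.421% (0.0869 to 1.22%), while 0.488% of all qualifying positions had a site at the same distance. Lower-ranked regions elsewhere had more, with 1.57% in promoter windows, 1.64% in intergenic sequence and 1.61% in introns, against 0.967%, 0.957% and 0.776% of all positions of those classes. In coding exons, as in 3′ UTRs, the share (0.948%) was close to that of all positions (0.925%). Only 3 regions carry the 3′ UTR value, and with 100 bp on each side the share was 1.54%, or 11 regions, against 1.07% of positions. Among IDR peaks, 3.40% had a site.

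The 3 regions with a site were of middling to high rank. The dhs-28 region, in a peroxisomal beta-oxidation gene, had 23.9 in the pooled list, 10.1 in replicate 1 and 16.7 in replicate 2. The hbl-1 region, in the worm relative of hunchback that times larval fates, had 21.6, with 8.03 and 11.5. The din-1 region, in a corepressor gene of the DAF-12 receptor, had 15.3 in the pooled list and 14.5 in replicate 2, without a match in replicate 1.

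GATA sites, the letters TGATAA on either strand, were counted in the same way. They were found in 90 regions, 12.6% (10.3 to 15.3%), against 11.8% of qualifying positions. In promoter windows the corresponding shares were 16.3% and 10.002%, in intergenic sequence 14.1% and 9.20%, in introns 11.7% and 8.55%, and in coding exons 11.6% (9.99 to 13.3%) and 9.19%. Of the 37 IDR peaks in 3′ UTRs, 13 (35.1%) had a GATA site, against 23.96% of all IDR peaks. No interval was computed for these 37 peaks. E-boxes of the letters CACGTG were found in 7 regions, 0.982% against 1.29% of positions, and in promoter windows in 2.31% against 1.74%. With the list of replicate 1 alone the 3′ UTR share was 1.84%.

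GA repeats differed from the pattern of AP-1 and GATA. The letters GAGAGAGA were found in 25 regions, 3.51% (2.28 to 5.13%), against 1.43% of qualifying positions. Promoter windows had 2.11% against 0.740%, intergenic sequence 2.29% against 0.818% and introns 1.48% against 0.581%, while coding exons had 0.203% against 0.293%. On the strand of the host gene, 23 of the 25 read as TCTCTCTC, 3.23% (2.06 to 4.80%) of all regions, as did most of the repeats in 3′ UTR sequence, with 1.35% of positions for TC and 0.102% for GA. The sid-5 region had its repeat 10 bp from the summit. The daf-2 region, in the insulin receptor gene, had 24.3 in the pooled list, 6.98 in replicate 1 and 12.4 in replicate 2. For replicate 1 alone the share was 2.42%, and for replicate 2 alone 2.24%. Within 25 bp of the summit it was 1.26% (0.579 to 2.38%) in the pooled list, an interval that held the 0.711% of positions. Within 100 bp it was 5.89% against 2.76%.

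**Figure D5:**
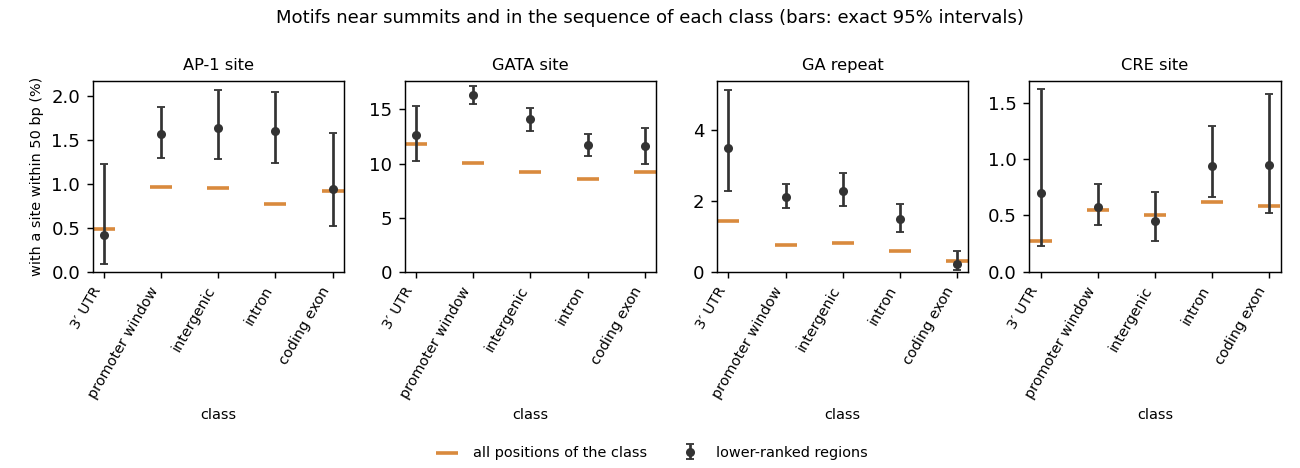
Points give the percent of lower-ranked regions of each class with a site within 50 bp of the summit, with exact 95% intervals, and orange dashes the percent of all positions of that class. In 3′ UTRs the AP-1 and GATA points sit by their dashes, at 0.421 and 12.6%, and the GA repeat point, at 3.51%, lies above it.

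The CRE, a CREB/ATF element of the letters TGACGTCA, was found in 5 regions, 0.701% (0.228 to 1.63%) against 0.276% of positions, and in 0.292% of those in the list of replicate 2 alone. The PAR-bZIP elements TTACGTAA and TTACATAA were found in 4, the C/EBP elements TTGCGCAA and TTGCACAA in 3, and CTCTCTGC, part of the element of the zinc finger factor EOR-1, in 1. Elements of RNA processing were near the level of the sequence. The polyadenylation signal AATAAA on the host strand was found in 138 regions, 19.4% against 21.2% of positions, and on the other strand in 184, 25.8% against 26.8%. The splice acceptor letters TTTTCAG were found in 7.15% against 8.07%, runs of 8 A or T in 17.7% of both, and the PUF protein site TGTANATA in 20 regions, 2.81% against 3.14%. GC content within 50 bp was 32.1% (SD 6.98, n = 713), against 31.5% over qualifying sequence and 40.9% for the regions in coding exons.

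Among the 24 gene lists, that of heterochronic genes, which time larval development, and microRNA pathway genes had the highest share of genes with a region. A region was present in 12 of the 18 genes with qualifying sequence, or 66.7% (41.0 to 86.7%), beside 6.07% of all genes. These genes have long 3′ UTRs, with a median of 940.5 qualifying bases, and the shares of their length classes give 4.95 genes. The list had 908 regions per Mb, against 432 per Mb over all genes with more than 800 bases. The median of the highest pooled value per gene was 15.5, beside 12.3 over all genes with a region. The count was 13 with replicate 1 alone and 11 with replicate 2 alone, lists that hold 868 and 1029 regions by the same rule.

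The strongest of these was daf-16, the FOXO factor of insulin signalling, at 24.4 pooled, 7.15 in replicate 1 and 18.6 in replicate 2. Next were hbl-1, given above, and lin-14, the first known target of a microRNA, at 20.9, with 10.6 and 10.5. The Argonaute gene alg-1 had 20.9, with 6.999 and 13.4. The remaining genes, named after their values were seen, were daf-12, lin-42, lin-41, ain-2, lin-28, lin-29, alg-2 and lin-66, at 11.9 to 20.4. Of the 12 genes, 10 were matched in both replicates at their strongest region, lin-42 only in replicate 2 and alg-2 only in replicate 1. An IDR peak in the promoter was present at 6 of the 12, and also at ain-1 and nhl-2, which are list genes without a region. Most of the 12 fall in the longest length class. In that class, 33.3% of genes with a region and 23.6% of all genes had such a peak. No interval was computed for the 6 of 12, so a difference from these shares is not shown.

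Several other lists had more genes with a region than their 3′ UTR lengths give, though on few genes. For some of them the exact interval held the share that length gives. Subunits of the V-ATPase, the proton pump of lysosomes and of other acidic compartments, had 5 of 13 genes (38.5%, 13.9 to 68.4%). Length gives 1.35 or 10.4%, and the count was 3 or 4 with the list of replicate 1 or 2 alone. The strongest were vha-19 at 21.4 and vha-5 at 17.1, matched in both replicates. Next were vha-17 at 16.7 and vha-11 at 16.7, whose strongest regions were matched only in replicate 2. The remaining gene, at 10.5, had no match in either replicate. Intestinal genes had 4 of 24 (16.7%, 4.74 to 37.4%), where length gives 0.840 or 3.50%. They were act-5 at 23.1, cpr-4 at 20.8, fat-6 at 16.5 and ifc-2 at 14.4. The 4 histone genes with qualifying sequence included 1 with a region, his-24 at 12.9, and 0 in either replicate's own list. The interval, 0.631 to 80.6%, held the 3.66% that length gives.

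Genes of the JNK and p38 kinase pathways and AP-1 had a region in 5 of 19 (26.3%, 9.15 to 51.2%). Length gives 2.75 or 14.5%, a share that the interval held. They were kgb-2, a JNK-like kinase gene, at 22.5, fos-1 at 15.1, the kinase genes sek-1 at 11.5 and pmk-1 at 10.5, and tir-1, an adaptor upstream of p38, at 9.63. The count was 3 with the list of replicate 1 alone and 8 with that of replicate 2. The bZIP factors had 3 of 24, near the 2.75 that length gives, with fos-1, crh-1 (the worm CREB) at 11.5 and zip-9 at 10.9, and had 5 with replicate 1 alone. Genes of chromatin and dosage compensation had 5 of 23 (21.7%, 7.46 to 43.7%), where length gives 2.80 or 12.2%, again within the interval. The strongest were the histone methyltransferase gene set-25 at 25.6, the acetyltransferase gene cbp-1 at 21.2, swsn-1 at 11.4 and capg-1 at 11.2.

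In 4 other lists the count was below the number that length gives, but the exact interval of each held the share that length gives. Chemoreceptor genes had a region in 4 of 307 (1.30%, 0.356 to 3.30%), where length gives 10.1 or 3.28%, the strongest at srv-1 with 20.5, and in 7 with either replicate's own list. Neuropeptide genes had 1 of 96, nlp-3 at 14.7 (0.0264 to 5.67%), where length gives 5.04 or 5.25%, and homeobox genes of the ceh series 1 of 47, ceh-18 at 17.3 (0.0539 to 11.3%), where length gives 3.21 or 6.82%. C-type lectins had 2 of 120 (0.202 to 5.89%), where length gives 3.21 or 2.68%. With the list of replicate 1 or 2 alone, the counts were 3 or 2 for homeobox genes and 1 or 4 for lectins, and neuropeptide genes had 2 with replicate 2. No region was found in 18 genes of translation factors, where length gives 1.80 or 9.97% and the exact interval reaches 18.5%. None was found in 13 genes of polyadenylation and 3′ end processing, where length gives 1.58 or 12.1% and the interval reaches 24.7%. The latter genes had 2 in each replicate's own list.

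The lists left were near the number that length gives or rest on few genes. Nuclear hormone receptors had 8 of 170, where length gives 8.73, led by nhr-85 at 25.3. Synaptic genes had 5 of 43 (5.70 by length), led by unc-64 at 17.8, muscle genes 4 of 42 (5.04), led by unc-52 at 10.6, and germ line genes 2 of 24 (2.58), led by nos-3 at 15.8. Collagens had 4 of 104 (2.48), led by col-103 at 28.6, folding genes 4 of 47 (3.26), led by hsp-3 at 21.2, and kinesins, dyneins and tubulins 3 of 26 (1.26), led by klp-7 at 13.5. Ribosomal proteins had 2 of 32 (0.638), led by rpl-3 at 24.99, respiratory genes 2 of 21 (1.39), led by cyc-1 at 20.2, and proteasome genes 2 of 18 (0.763), led by rpt-2. Some of these small counts depended on the replicate, whose own lists hold more regions by the same rule. Proteasome genes had 2 with either replicate alone, and respiratory and germ line genes each had 2 with replicate 1 and 3 with replicate 2. With replicate 1 alone, collagens had 2 genes, folding genes 2, muscle genes 7, ribosomal proteins 1 and kinesins, dyneins and tubulins 1. With replicate 2 alone, nuclear hormone receptors had 15, synaptic genes 11, folding genes 7 and ribosomal proteins 1.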

How the data were processed

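ChIP-seq of eGFP-tagged JUN-1 was deposited for 2 biological replicates of 1 group. The authors deposited region lists in narrowPeak format for each replicate (27417 and 28475 regions), for both pooled and after IDR, on ce10 and ce11. Only ce11 was used. Per the files deposited beside the samples, each list derives from alignments and a control. The peak caller, the aligner and their versions were not given in the sources used here. The deposited signal value is a score per region, given by the authors, on a scale that is not stated, and the deposited −log10 q-value is the other measure. Both were used only to rank and describe.

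Genes came from Ensembl release 115. Summits were assigned first to promoter windows, then to coding exons, 3′ UTRs, other exons, introns and intergenic sequence. Replicate summits were matched within 200 bp. Motifs were searched within 50 bp, as whole matches, and compared with every position of the same class. Length-based numbers apply to the genes the share of each of 5 classes, set by the number of qualifying 3′ UTR bases. These comparisons with length and with all positions of a class were added after seeing the data. Named genes are those of the 20 regions of highest signal, of regions with an AP-1 site, of the 5 genes with most regions, up to 4 per gene list, and jun-1 and fos-1. Genes with GA repeats, with IDR peaks in 3′ UTRs, further heterochronic genes and the convergent pairs were named after their values were seen. The set, gene lists and motifs were chosen with earlier results of these data known. Of the names in the lists, 6 had no protein-coding gene and were left out. The result of 1 list is not reported here. Overlap, class, motif and interval code was checked against direct counting. Values came from scipy 1.17.1 and pandas 2.3.3 on Python 3.11.15 with numpy 2.4.6, and figures from matplotlib 3.10.9.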

Additional observations from a re-analysis of the deposited data

How the results depend on the processing

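With regions at or above the median signal value of the pooled list alone, 308 regions remained in 3′ UTRs. Then 71.8% were matched in both replicates, the density was 136 per Mb, the median signal was 0.982 times that of the other regions (1.02 with all), GC content was 33.1%, and 28.9% of the genes had an IDR promoter peak. The share matched in both was 29.6% with summits within 100 bp and 64.7% within 500 bp. An AP-1 site was found in 0% of regions within 25 bp and 1.54% within 100 bp. GC content within 100 bp was 33.1%. The share in convergent arrangement was 75.2% and 58.7% with promoter windows of 2000 and 500 bp upstream, and 70.4% on autosomes. When the rule was applied to the list of one replicate, the ranges were 868 to 1029 regions, 382 to 453 per Mb, 1.02 to 1.07 for the ratio of medians, 31.0 to 32.0% for GC content, and 116 to 129.5 bp for the distance to the 3′ end. The causes were not tested. These settings gave 19 values that moved beyond a set limit and 66 that did not, and for single motifs and gene lists 55 and 77. The limit was a fold change for counts of regions or genes and the exact interval for shares. For other values it was the standard deviation between the values of the replicate lists. Matching in both replicates has no value when one list is left out. No paired analysis was possible because there is 1 group. Unknown depth limits all values.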

Other observations

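Regions were unevenly spread over the chromosomes. Per Mb of qualifying 3′ UTR sequence, chromosome II had 235.3 (82 regions) and the X chromosome 293 (148 regions), while chromosome I had 374 (128 regions) and chromosome III 382 (133 regions). Chromosomes IV and V had 305 each. The other lower-ranked regions, per Mb of whole chromosome, were also densest on chromosome III, at 195, and had 147 to 185 elsewhere. Of the 565 autosomal regions, 60.7% (exact 95% interval 56.5 to 64.8%) lay between the first and the last 25% of their chromosome. The interval held the share of qualifying autosomal bases there, 56.8%, and that of the other autosomal lower-ranked regions, 58.4%.

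Among the convergent pairs with a region in both genes, chosen here after their values were seen, are set-25 with the syntaxin gene unc-64, and the ribosomal protein gene rpl-3 with tir-1. The regions of rpl-3 and tir-1 overlap, and replicate 1 gave both the same value of 8.66. The set-25 region had 25.6 in the pooled list and 20.5 in replicate 2, without a match in replicate 1, and the unc-64 region 17.8, with 6.99 and 12.2. Regions in 3′ UTRs annotated on both strands numbered 40 (5.61%), against 3.07% of qualifying bases.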
